A study of Mus musculus with 3 samples.

Results

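The miR-30 family was followed in the serum of mice carrying 4T1 mammary tumours that differed in Tn antigen, a truncated O-glycan left on cell-surface proteins when O-glycan chains are not extended. The family was taken as the panel probes for miR-30a, miR-30b, miR-30c, miR-30d and miR-30e, matched by name without starred probes, which gave 5 of 566 probes. The data are 3 pools of serum, 2 from mice with Tn+ tumours (the first and second Tn+ pool, numbered 1 and 2 in the plots) and 1 from mice with Tn- tumours. All mice were female BALB/c, 6 to 8 weeks old when acquired, and received 100000 cells of the 4T1 line, a model of triple-negative breast cancer, in a mammary fat pad, with sacrifice after 28 days. The Tn+ line was made with CRISPR/Cas9 and a guide to exon 2 of Cosmc, a chaperone required for extending O-glycan chains, and the labels do not say whether it was 1 clone or whether the Tn- cells had passed through the same editing steps. The labels give at least 8 mice per group in each study, but not how many entered a pool, nor whether different animals gave the 2 Tn+ pools. Differences between the Tn+ pools may therefore be technical, and the Tn- group has no replicate. P-values here reflect the scatter of these pools alone. Cosmc is not a miRNA, so the edit could not be checked on this panel.

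MicroRNAs guide the Argonaute protein to messenger RNAs that pair with the seed, a short stretch near the 5′ end, and these messages are then repressed. The miR-30 family is a set of miRNAs with 1 seed and different 3′ parts, broadly expressed and abundant in kidney, heart and epithelia. In human breast tumour-initiating cells the family is known to restrain self-renewal by repressing the SUMO-conjugating enzyme UBC9, and also to repress integrin beta 3. In human melanoma, miR-30b and miR-30d are known to repress GALNT7, an N-acetylgalactosaminyltransferase of O-glycosylation.

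Mature sequences from RefSeq (GRCm38.p6) were matched for 3 of the 5 members, and they are shown because the seed defines the family and the 3′ part is what separates its probes. They are printed 5′ to 3′ with the seed, bases 2 to 8, in capitals, and the last line is the other panel miRNA in the RefSeq table with this seed.
miR-30a-5p: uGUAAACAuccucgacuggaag
miR-30e-5p: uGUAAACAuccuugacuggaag
miR-30c-5p: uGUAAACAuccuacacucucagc
miR-384-5p: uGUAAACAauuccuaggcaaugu

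miR-30a and miR-30e are identical at 21 of 22 bases and differ by C13U, counted from the 5′ end with the miR-30a base first. miR-30c has the first 12 bases of both and then diverges, with 17 of the first 22 bases identical to either. miR-384-5p matches the members over the first 8 bases only. Probes for such near-identical miRNAs can share signal, and the extent of this was not tested. The miR-30a sequence lies at chr1:23272274-23272295 on the plus strand, in Mir30a, and Mir30c-2 lies 19361 bases beyond that hairpin with no annotated gene between them. Mir30e, with the mature sequence at chr4:120772660-120772681 on the minus strand, lies 2983 bases from Mir30c-1, and both hairpins lie within the bounds of the protein-coding gene Nfyc, which encodes a subunit of the CCAAT-binding factor NF-Y. Mature miR-30c is the same from Mir30c-1 (chr4:120769584-120769606, minus strand) and Mir30c-2 (chr1:23291714-23291736, plus strand), so its probe reads both genes. Mir30b and Mir30d are neighbours with no annotated gene between them.

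Signal is given in the normalized units the authors deposited. In every pool the lowest deposited value is a floor shared by many probes, 1 unit in the first Tn+ pool, 1.09 in the second and 1.08 in the Tn- pool, and 228, 150 and 85 probes lay above it. Values up to 60 units lay on a regular grid with a step of 0.895, 1.09 and 1.08 units, which bounds the resolution. The summed signal of all probes was 59444, 31977 and 4204 units, so that every comparison of levels below is set against pools whose totals differed up to 14.1-fold. The erythrocyte miRNA miR-451 made up 72.4%, 41.2% and 44.1% of these totals.

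All 5 members were above the floor in both Tn+ pools, and miR-30a, miR-30c and miR-30e were above it in the Tn- pool. miR-30a, known in human cancer cells to repress the autophagy gene BECN1, had 16.9 units in the first Tn+ pool, 65.9 in the second and 9.12 in the Tn- pool. It was the member with the most signal in the second Tn+ pool and in the Tn- pool, and its Tn+ pools stood further apart from each other than the first Tn+ pool stood from the Tn- pool. miR-30c, known in human breast cancer cells to repress the actin-binding protein TWF1, had 36.6 units in the first Tn+ pool, 8.23 in the second and 1.58 in the Tn- pool. Its value in the Tn- pool was the lowest value above the floor there, and it led the family in the first Tn+ pool only.

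miR-30e, which differs from miR-30a by a single base, had 10.6 units in the first Tn+ pool, 9.32 in the second and 1.58 in the Tn- pool. The Tn+ pools nearly coincided for it, unlike those of miR-30a. miR-30d had 15.1 units in the first Tn+ pool, 6.06 in the second and the floor of 1.08 in the Tn- pool. miR-30b, whose gene neighbours that of miR-30d, had 7.05 and 7.14 units in the Tn+ pools and the same floor in the Tn- pool. For each of the 5 members both Tn+ values lay above the Tn- value. This held for 109 of the 566 probes (19.3%), counting those above the floor in both Tn+ pools. Only 126 probes were above the floor in both Tn+ pools, the 5 members and all 109 among them. The pattern was thus common among probes detected in Tn+ serum. miR-384-5p, the other panel miRNA with the seed, was at the floor in every pool.

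**Figure D1:**
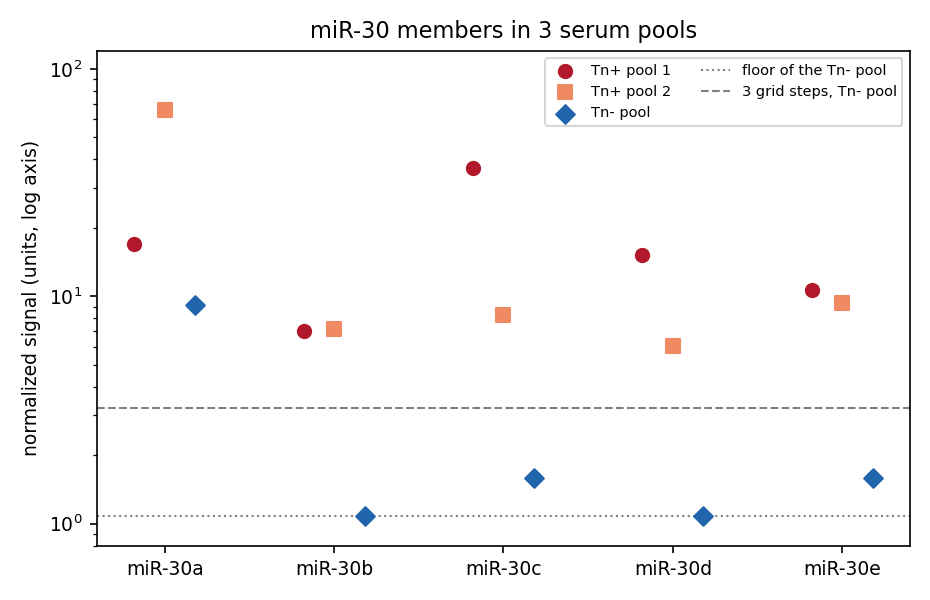
Normalized signal (units, log axis) of the 5 miR-30 members, with 1 point per serum pool; the dotted line is the floor of the Tn- pool (1.08 units) and the dashed line 3 grid steps there (3.23 units). Both Tn+ points lie above the Tn- point for every member, miR-30a and miR-30c swap order between the Tn+ pools, and only miR-30a exceeds 3 grid steps in the Tn- pool.

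The spread between the Tn+ pools was uneven within the family. miR-30c differed 4.45-fold between them, with more in the first Tn+ pool, and miR-30a differed 3.90-fold, with more in the second Tn+ pool. The difference was 2.49-fold for miR-30d, 1.14-fold for miR-30e, and miR-30b had nearly equal values. Of 60 probes that cleared the floor in all 3 pools, the Tn+ pools differed by at least 2-fold on signal + 1 for 31 (51.7%), so a gap of at least 2-fold between the Tn+ pools was common on this panel. In Tn+ serum (mean ± SD, n = 2) miR-30a had 41.4 ± 34.6 units, miR-30c 22.4 ± 20.1, miR-30d 10.6 ± 6.39, miR-30e 9.98 ± 0.926 and miR-30b 7.095 ± 0.0636. In that order only miR-30e and miR-30b had values that did not overlap between neighbours, and the order is one of probe signals, since capture efficiency may differ between probes.

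The comparison of Tn+ with Tn- serum asks whether circulating miR-30 differs with the Tn status of the tumour. As deposited, signal in the first Tn+ pool was 23.2-fold that of the Tn- pool for miR-30c, 6.73-fold for miR-30e and 1.85-fold for miR-30a. In the second Tn+ pool the same ratios were 5.21-fold, 5.90-fold and 7.23-fold. The values of miR-30c and miR-30e in the Tn- pool lay under 3 grid steps of that pool (3.23 units), and against 3 steps the ratios were 11.3-fold and 2.55-fold for miR-30c and 3.29-fold and 2.88-fold for miR-30e. For miR-30d and miR-30b, which did not exceed the floor of the Tn- pool, Tn+ signal over 3 steps came to 4.67-fold and 1.87-fold for miR-30d and 2.18-fold and 2.21-fold for miR-30b, in the first and second Tn+ pool. These are not lower limits, because the background that was subtracted is unknown. The ratios thus ranged widely for miR-30c and miR-30a and narrowly for miR-30e and miR-30b. In serum, more cells that release a miRNA and more miRNA released per cell cannot be told apart.

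A rule of size with no p-value asked that both Tn+ pools reach 2-fold over the Tn- pool on signal + 1. By this rule 4 of the 5 members were higher in Tn+ serum, namely miR-30b, miR-30c, miR-30d and miR-30e. Of all 566 probes 68 met the rule (12.0%), and 4 met its reverse. All 68 lay among the 126 probes above the floor in both Tn+ pools, of which they were 54.0%, and the 5 members belong to the 126. miR-30a missed the rule through the first Tn+ pool, where it was 1.77-fold higher on this scale, against 6.61-fold in the second Tn+ pool. With floor values set to 3 grid steps, miR-30c and miR-30e still met the rule, while miR-30b and miR-30d did not, and 8.30% of all probes met it. The median log2 ratio of the 5 members was 2.09, against 1.47 over the 60 probes measured above the floor in all pools and 0.71 over the 259 that exceeded it in some pool. Neither set is like the members, since miR-30b and miR-30d lie outside the 60 and many of the 259 were at the floor in a Tn+ pool. The median over the 126 probes was not taken, so no excess of the family is read from these medians.

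If 1 grid step is 1 counted barcode, the counting error of a difference has a lower limit. For miR-30a, the first Tn+ pool exceeded the Tn- pool by 7.78 units, and the counting SD of that difference was at least 5.00 units. For miR-30d, the second Tn+ pool exceeded the Tn- pool by 4.98 units with a counting SD of at least 2.79. Neither difference reached 2 of these SDs. The largest differences in the family against this measure were those of miR-30a in the second Tn+ pool, at 56.8 units with a counting SD of at least 9.03, and of miR-30c in the first, at 35.0 units with at least 5.87. These SDs leave out the counts removed as background and all differences between mice.

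In the limma fit of log2(signal + 1) to all 566 probes, none passed a Benjamini-Hochberg adjusted p of 0.05 (0%), while 63 had an unadjusted p under 0.05. The members' adjusted p ran from 0.205 to 0.895. miR-30b had a log2 ratio of 1.96 (SE 0.154, limma adjusted p = 0.205) and miR-30e 2.09 (SE 0.181, limma adjusted p = 0.205). These were the members with an unadjusted p under 0.05, which 56 probes reached on the higher side (9.89%). The log2 ratio was 2.36 for miR-30d (SE 0.684), 2.85 for miR-30c (SE 1.15) and 1.77 for miR-30a (SE 1.08). The small SE of miR-30b and miR-30e comes from the close agreement of their 2 Tn+ values, and the fit takes the spread of the Tn+ pools for the single Tn- pool. An exact permutation of 2 pools against 1 cannot give a p below 0.333, so no such test was made.

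The calls depended on how values at the floor were handled. On the 259 probes that exceeded the floor in some pool, limma called 29 probes (11.2%), all higher in Tn+ serum, and none of the 5 members. The lowest adjusted p among them was 0.0966, for miR-30c. With floor values at 3 grid steps limma called 43 probes (7.60%), all higher, among them miR-30c (limma adjusted p = 2.69e-04) and miR-30e (limma adjusted p = 0.0197). In that fit every probe was given the same SE, 0.648 on the log2 scale, so a call there reflects the size of the ratio only. The same held for the fit on the 259 probes (SE 1.15) and for that with all values under 3 grid steps raised (SE 0.603). The members called changed when every value under 3 grid steps was raised to 3 steps. miR-30c kept its call (limma adjusted p = 0.00636), miR-30e lost it (limma adjusted p = 0.254) and miR-30a gained one (limma adjusted p = 0.0460).

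Shares of the family signal do not move with the scaling of a pool, and as deposited they set the first Tn+ pool apart from the other 2 pools. The summed signal of the 5 members was 86.3 units in the first Tn+ pool, 96.7 in the second and 14.4 in the Tn- pool. miR-30a held 19.6% of it in the first Tn+ pool, 68.2% in the second and 63.2% in the Tn- pool. miR-30c held 42.4%, 8.52% and 10.9%. The leading member was thus miR-30c in the first Tn+ pool and miR-30a in the other 2 pools.

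miR-30d held 17.5%, 6.27% and 7.48% of the family signal in the first Tn+ pool, the second and the Tn- pool. The shares of miR-30e were 12.3%, 9.64% and 10.9%, and those of miR-30b 8.17%, 7.39% and 7.48%. The Tn+ pools thus differed less in the shares of miR-30b and miR-30e than in those of the other members, while the Tn- values behind miR-30b and miR-30d are the floor. The share that would have to move from some members to others to turn one make-up into another, in percentage points, was 48.6 between the Tn+ pools, 43.6 between the first Tn+ pool and the Tn- pool, and 5.03 between the second Tn+ pool and the Tn- pool. The make-up of the family therefore differed more between the 2 Tn+ pools than between the second Tn+ pool and Tn- serum. In the Tn- pool the floor enters these shares and distances, which were therefore recomputed in ways chosen after seeing the data. The distance between the second Tn+ pool and the Tn- pool was 13.7 points with floor members counted as 0, 20.8 with them at 3 grid steps and 26.8 with all values under 3 steps raised, under the 48.6 between the Tn+ pools each time. The distance between the first Tn+ pool and the Tn- pool was 55.2, 38.1 and 30.6 points in the same order. The share of miR-30b in the Tn- pool was 0% with floor members as 0 and 17.2% with them at 3 steps, against 8.17% and 7.39% in the Tn+ pools. The share of miR-30a there was 74.3% with floor members counted as 0 and 48.7% with them at 3 grid steps, above its share in the first Tn+ pool either way.

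**Figure D2:**
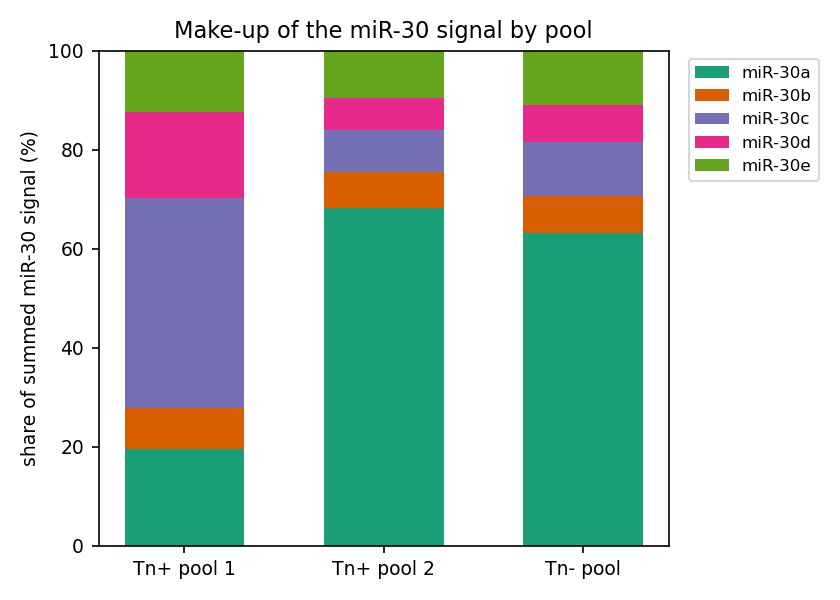
Stacked bars of each member's share (%) of the summed miR-30 signal, with 1 bar per serum pool and floor values taken as deposited. miR-30a fills 68.2% of Tn+ pool 2 and 63.2% of the Tn- pool but 19.6% of Tn+ pool 1, where miR-30c holds 42.4%.

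Ratios between members showed the same exchange. miR-30a had 0.462 times the signal of miR-30c in the first Tn+ pool, 8.01 times in the second and 5.77 times in the Tn- pool. Against miR-30e, its near-identical relative, miR-30a had 1.59, 7.07 and 5.77 times the signal. miR-30c and miR-30e, whose genes Mir30c-1 and Mir30e are neighbours, stood at 3.44, 0.883 and 1 times. Since miR-30c and miR-30e had the same low value in the Tn- pool, ratios to either there rest on 1.58 units.

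Summed over the members, the family reached 5.97-fold (first Tn+ pool) and 6.69-fold (second) the level of the Tn- pool, so the 2 sums were much closer to each other than miR-30a or miR-30c were. The log2 ratio of the mean Tn+ sum was 2.66. Without miR-30a the sum was 69.4, 30.8 and 5.32 units, or 13.0-fold and 5.78-fold higher in the Tn+ pools. Without miR-30c it was 49.7, 88.4 and 12.9 units, or 3.86-fold and 6.88-fold higher. The near-equal sums of the Tn+ pools thus rest on miR-30a and miR-30c together.

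Set against the pool totals, the family had its highest share in the Tn- pool. It made up 0.145% of all signal in the first Tn+ pool, 0.302% in the second and 0.343% in the Tn- pool. The family sum of the Tn- pool, 14.4 units, had a counting SD of at least 3.94 units, so 0.343% was not resolved from 0.302%. The first Tn+ pool, with the lowest share, was also the pool with the highest share of miR-451. Of the signal without miR-451, the family made up 0.526%, 0.514% and 0.615%. The Tn- share exceeded the Tn+ shares by 0.0890 and 0.101 percentage points, less than its own counting SD of at least 0.168 points. At this depth a difference of that size in the share of the remaining signal was not resolved.

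**Figure D3:**
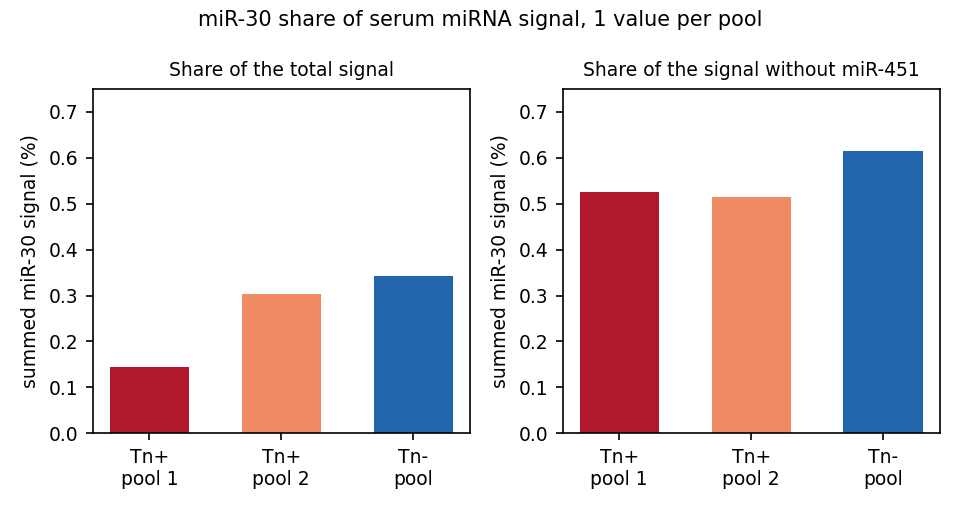
Summed miR-30 signal as a percentage of all signal in the pool (left) and of the signal without the erythrocyte miRNA miR-451 (right), with 1 bar per pool and no replicate error. On the left the Tn- pool has the highest share (0.343%), and on the right the 3 pools lie between 0.514% and 0.615%.

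The members' ratios were also taken after 4 scalings of the pools, each followed by a floor common to all pools. Median-of-ratios scaling over those 60 shared probes divided out a 3.18-fold difference between Tn+ and Tn- serum. After it all 5 log2 ratios stayed above 0, from 0.20 for miR-30a to 1.57 for miR-30c, and none of the members met the rule of size, while 5.83% of all probes did. The log2 ratios of miR-30a were then on opposite sides of 0, at -0.65 in the first Tn+ pool and 1.06 in the second. Scaling by the 100 probes with the highest mean divided out 6.06-fold and left log2 ratios from -0.68 for miR-30a to 0.78 for miR-30c.

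Equal totals divided out 7.48-fold when miR-451 was left out of the total and 10.4-fold when it was not. With equal totals miR-30a had a log2 ratio of -1.40 and miR-30e of -0.40, miR-30c had 0.09, and miR-30b and miR-30d were at the common floor in every pool. The miR-30e value of the first Tn+ pool was also raised to this floor, which makes its ratio less negative. The direction of miR-30a and miR-30e therefore depended on the scaling, as did that of the family sum, whose log2 ratio was 0.99, 0.079, -0.24 and -0.62 in order of the shift removed. No member passed an adjusted p of 0.05 with limma after any of the 4 scalings. Nearly all probes called there sat at the common floor in both Tn+ pools, with no spread, so the absence of members says little about them.

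**Figure D4:**
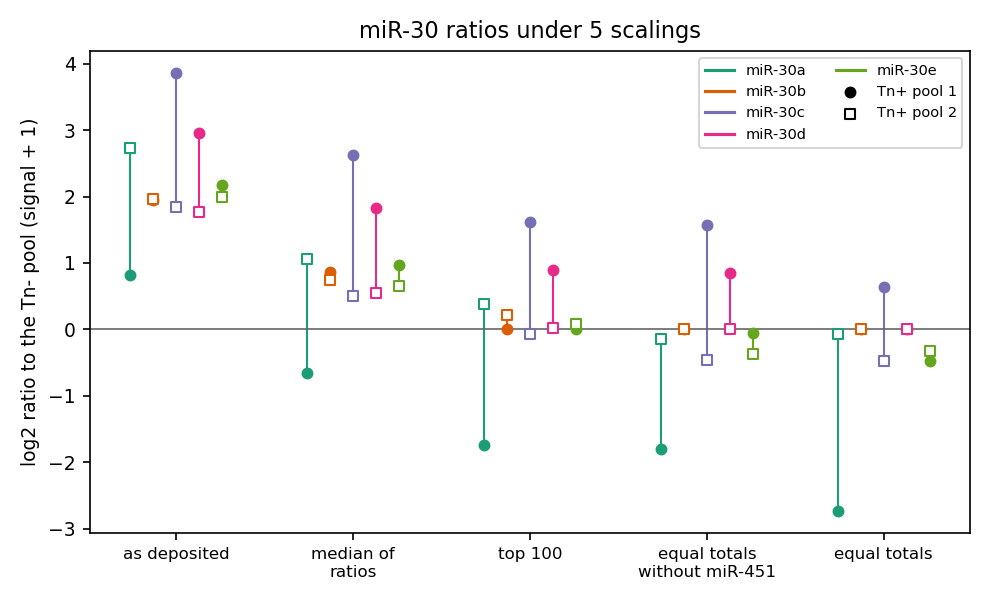
Log2 ratio to the Tn- pool on signal + 1 for each miR-30 member in Tn+ pool 1 (filled circles) and Tn+ pool 2 (open squares), as deposited and after 4 scalings in order of the shift they remove; a vertical line joins the 2 pools of a member. All points lie above 0 as deposited, and after equal totals only miR-30c in Tn+ pool 1 does, while members at the common floor in every pool lie at 0.

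Among 57 non-member probes with signal over the floor in every pool, the profile nearest to the summed miR-30 signal was that of miR-328, with 33.0 and 41.96 units in the first and second Tn+ pool and 4.81 in the Tn- pool. Likeness was measured as the Euclidean distance between log2(signal + 1) profiles centred over the 3 pools, and it was 0.17 for miR-328. The next were miR-205, a miRNA of epithelial cells, at 0.41, miR-1224 at 0.43, miR-2133 at 0.62 and miR-378 at 0.70. Single members had other neighbours. miR-30c was nearest to the probe that reads both miR-17 and miR-106a (0.27), followed by miR-150, a lymphocyte miRNA (0.51). miR-30e was nearest to miR-378 (0.36) and miR-2133 (0.54), and miR-30a to miR-129-3p (0.58) and miR-1196 (0.64). The distance between miR-30a and miR-30c themselves was 2.91, and each of them was closer to miR-30e, at 1.49 and 1.45. With 3 pools such a likeness describes these pools and carries no test.

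Markers of blood cells and liver were read in the same comparison. The rule of size, counted below for each list, was met by 12.0% of all probes. Among probes above the floor in both Tn+ pools, 54.0% met it. The 8 erythrocyte probes took 82.9%, 70.8% and 53.5% of all signal in the first Tn+ pool, the second and the Tn- pool. Their summed signal was 49290 and 22629 units against 2247, and 5 of the 8 met the rule of size, with miR-363 at the floor in every pool and miR-92a at 7.05 and 1.09 units against 3.73. The haemolysis ratio of miR-451 to miR-23a was 110, 66.2 and 119. The platelet and endothelium list of 6 probes summed to 123, 96.0 and 15.6 units, 7.89-fold and 6.16-fold above the Tn- pool, with 3 members meeting the rule and miR-24 at the floor in every pool. Its probe for miR-199a-3p was lower in both Tn+ pools, at 7.94 and 1.09 units against 10.2. The myeloid list of 5 summed to 1080 and 593 units against 292, with 3 members meeting the rule and no probe of the 5 at the floor throughout. Its probe for miR-142-5p, at 124 and 201 units against 150, lay on both sides of the Tn- pool. The liver list of 4 summed to 284 and 90.0 units against 20.4, with 2 members meeting the rule and miR-192 at the floor in every pool. Its probe for miR-101b likewise lay on both sides, at 5.26 and 15.9 units against 10.2. As shares of all signal, the platelet and endothelium list took 0.207%, 0.300% and 0.371%, the myeloid list 1.82%, 1.85% and 6.96%, and the liver list 0.477%, 0.281% and 0.485%, each highest in the Tn- pool, unlike the erythrocyte list. Without miR-451 the myeloid share was 6.59%, 3.15% and 12.5%, still highest in the Tn- pool. The liver share was then 1.73%, 0.478% and 0.869%, highest in the first Tn+ pool. The platelet and endothelium share was also highest in that pool, with 0.664% in the Tn- pool. For the platelet and endothelium list and the liver list the order of the pools thus depended on miR-451. No counting SD was taken for the list shares, so their order was not tested. The part of these cells in the miR-30 signal was not tested.

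For comparison with another family of shared seed, the 9 probes of the let-7 family summed to 840, 691 and 47.4 units, 17.7-fold and 14.6-fold higher in the Tn+ pools, against 5.97-fold and 6.69-fold for miR-30. As a share of the signal without miR-451, let-7 made up 5.12%, 3.67% and 2.02%, with the lowest share in the Tn- pool. The miR-30 share was highest there, but by less than its counting SD, so no opposite direction of the families was shown. Of the 9 let-7 probes 5 met the rule of size, namely let-7b, let-7c, let-7d, let-7g and let-7i. It was met by 12.0% of all probes and by 54.0% of those above the floor in both Tn+ pools. No pool gave let-7e or let-7a signal over its floor. The let-7f probe had 31.2 and 40.9 units against 30.7, and miR-98 had 1.67 and 1.09 against 1.08. Of the 5 probes, all but let-7g read 1.08 units, the floor, in the Tn- pool, where let-7f gave 30.7 of the summed 47.4. The difference between the families was not tested, as the Tn- group is a single pool.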

How the data were processed

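Serum RNA of 3 pools was hybridized by the authors to NanoString's nCounter panel of mouse miRNAs (v1.5), about 30 ng for 16.5 h, per the labels' protocols. The values in the deposited table are signal that the authors normalized in nCounter Advanced Analysis, per the series' design text; the submitters' processing notes also list R 4.4. The sources used here do not give the scaling probes or the background method. A second deposited table held the same signal in 1698 of 1698 values. Low values lay within 0.05 steps of a regular grid in each pool, but the background subtracted is unknown, so whole counts were not recovered and no count model was used.

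The main test was limma 3.58.1 (lmFit, eBayes; R 4.3.3) on log2(signal + 1) of all 566 probes and 3 pools, with Benjamini-Hochberg adjustment and 1 residual degree of freedom per probe. On this scale the fold of a low miRNA comes out too small. Alternatives were 2 filters, pseudocounts of 0 and 5, floor values at 3 grid steps, 4 scalings, and leaving out each Tn+ pool. After scaling, values under the highest scaled floor were set to it; sums were scaled without a floor. The fold of a member at the floor in the Tn- pool was taken over 3 grid steps. Python 3.11.15, numpy 2.4.6 and pandas 2.3.3 were used otherwise. Sequences came from RefSeq GRCm38.p6.

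The members, marker lists and tests were chosen with earlier results of these data known. Named were the members, probes with their seed, the 5 probes nearest in pattern to the sum and the 2 nearest to each member above the floor in all pools, the list markers and miR-23a. The panel held 0 other probes from miR-30 hairpins.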

Additional observations from a re-analysis of the deposited data

How the results depend on the processing

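No paired analysis was possible because the labels link neither Tn+ pool to the Tn- pool, and the Tn- group is a single pool. The limma count over all probes, 0 as deposited and with a pseudocount of 5, was 5 with no pseudocount, 29 and 32 with the filters on detection and on a mean of 10 or more, and 43 with floor values at 3 grid steps. It was 42 with all values under 3 steps raised to 3 steps, an alternative chosen after seeing the data, where miR-30a and miR-30c were called in place of miR-30c and miR-30e. In the fits with a filter or with values at 3 steps every probe was given the same SE, so those calls reflect the size of the ratio only. After median-of-ratios, top-100, equal-total and equal-total scaling without miR-451 the limma count was 17, 33, 35 and 32. Of these calls, 17, 30, 35 and 32 were probes at 1 common floor in both Tn+ pools, which have no spread there, and none was a miR-30 member. The rule of size was met by 72 probes in either direction as deposited, 44 with a pseudocount of 5, 47 with all values under 3 steps raised, and 108 to 127 with 1 Tn+ pool left out. Of the members, 4 met it as deposited, 2 with a pseudocount of 5 or with values at 3 steps (both ways), 0 after each of the 4 scalings, and 4 to 5 with 1 Tn+ pool left out. Of all 566 probes, 68 met it on the higher side as deposited, 44 with a pseudocount of 5, and 47 and 46 with values at 3 steps. After the 4 scalings, in the order of the limma counts above, 33, 18, 10 and 13 probes met it on that side.

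The log2 ratio of the family sum, 2.66 as deposited, was 2.58 to 2.74 with 1 Tn+ pool left out, 2.29 with floor values at 3 steps and 2.05 with all values under 3 steps raised. It was 0.99, 0.079, -0.24 and -0.62 after median-of-ratios, top-100, equal-total without miR-451 and equal-total scaling, and 3.23 and 2.42 without miR-30a and without miR-30c, both chosen after seeing the data. The log2 ratio of miR-30a turned to -0.68, -0.98 and -1.40 after the last 3 scalings in order of shift, and that of miR-30e to -0.21 and -0.40 with equal totals without and with miR-451. Leaving out Tn+ pool 2 lowered the log2 ratio of miR-30a from 1.77 to 0.82, and leaving out Tn+ pool 1 lowered that of miR-30c from 2.85 to 1.84. These reversals follow from the shift each scaling removes, and which scaling is nearest to the serum content was not tested. Depth limits the Tn- pool most, where 4 of the 5 members had 1.58 units or less.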
